A study of Mus musculus with 12 samples.

Results

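The mouse genes numbered Zfp (zinc finger protein) were followed in J774A.1 macrophages with and without the mitochondrial enzyme ACAT1, at rest and after lipopolysaccharide (LPS). The members are the genes of both count tables whose symbol is Zfp followed by digits alone, apart from Zfp36, with 10 or more raw counts in each of the 12 libraries. They number 287 of the 16699 genes that both tables list. Of 308 such symbols in either table, 295 are in both, 8 of these fell under 10 counts in a library, and 13 are in a single table and were not followed. A gene all but silent in one group was therefore left out of the members.

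Most Zfp proteins bind DNA through runs of C2H2 zinc fingers, small folds in which a pair of cysteines and a pair of histidines hold a zinc ion. Many also carry a KRAB box, which recruits the co-repressor TRIM28 and with it the histone methyltransferase SETDB1, and this machinery is best known for silencing retroelements and other repeats. KRAB zinc finger genes lie in tandem clusters that grew by gene duplication. Others have no KRAB box and act otherwise, for example as activators of transcription, in RNA handling or on ribosomes.

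J774A.1 is a mouse macrophage cell line. The groups were WT and ACAT1 KO cells, either unstimulated or given 100 ng/ml LPS for 2 h, with 3 libraries in each group. LPS is a component of the bacterial outer membrane that macrophages sense through TLR4. Both genotypes had passed through transfection with a Cas9-2A-GFP plasmid and sorting for GFP. The WT cells received the plasmid without a guide, and the KO cells a guide to exon 4 of Acat1. The study's methods describe clonal populations of both genotypes, grown out after a few sorted cells were plated per well. It names 3 different lines per genotype for the unstimulated cells, and for the LPS libraries the methods do not say which line each came from. Libraries are called here by genotype and label number, as lines 1 to 3, which for the LPS libraries is an inference. P-values measure the spread between these libraries.

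Acat1 stood at 80.8 to 108.4 CPM (counts scaled to a common library size, TMM-normalised) in unstimulated WT libraries and 25.5 to 28.9 CPM in unstimulated KO libraries, and at 65.0 to 95.4 CPM and 18.5 to 19.9 CPM after LPS, so every library was on its label's side. Library totals ran from 56948593 to 167280149 counts. All 8 macrophage markers examined were listed in both tables, at 17.1 CPM or more in each library. Of 12 markers of other cell types, 9 were not listed in both tables, Cd4 and Cd79a stayed under 1 CPM, and Pdgfra reached 12.9 CPM. Counts were also summed over noncoding genes whose exons lie almost wholly inside exons of the opposite strand. In 3 unstimulated libraries, WT lines 1 and 2 and KO line 2, these genes took 0.0175% to 0.0265% of the counts, against at most 0.00446% elsewhere. Values without these 3 libraries are given for the members as a set, for their groups, and for the named genes whose call or value changed.

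Together the members took 0.509% to 0.604% of a library's counts. Their mean level over the 12 libraries had a median of 9.82 CPM, with 18 members under 1 CPM and 9 at 100 CPM or more. Per kilobase of exon, the 3 highest were Zfp207 at 31.5, Zfp706 at 29.6 and Zfp598 at 29.2 CPM per kb, against a median over the members of 2.26 CPM per kb. Zfp207 encodes a spindle and splicing factor and Zfp598 the ubiquitin ligase that marks collided ribosomes. In the GENCODE annotation of GRCm38, 284 members are protein-coding, 2 are pseudogenes and 1 is a lincRNA. A pattern search of the translated coding sequences found a median of 11 C2H2 fingers, from 0 to 37, and the core of a KRAB A box in 131 members. The median was 12 fingers with that box and 8 without it. By position, 172 members fell into 24 clusters of at least 3 members with gaps under 1 Mb.

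Because many members moved together after LPS, their promoters are shown first. RefSeq promoter windows of GRCm38.p6, which run from 250 bases before to 50 bases after a transcription start, were found for 240 of the 287 members. Both strands were searched for 6 motifs. A CArG box, the site of serum response factor, was in 4 members' windows, or 1.67%, against 1.51% of the 10470 genes of both tables with a window and 1.81% of all 27025 genes with one. All 4 of these genes passed the LPS test upwards in both genotypes, and their sites are printed with the CArG box in capitals and 10 bases on either side.
Zfp811 (chr17:32809900-32809929, minus strand): ttggtccccgCCTTATTTGGggatctggat
Zfp871 (chr17:32788242-32788271, minus strand): tcccgtccagCCATTTTAGGcgtttgtgtc
Zfp644 (chr5:106696888-106696917, minus strand): ttggtcgccaCCATATTTGGagcgtgccta
Zfp619 (chr7:39517696-39517725, plus strand): gaccagctgtCCAATAAAGGgcgctgccga
The boxes of Zfp811 and Zfp871, neighbouring members on chromosome 17, start 12 and 26 bases past the annotated start, and those of Zfp644 and Zfp619 start 77 and 60 bases before it. Among members that rose in both genotypes 4 of 115 windows held the box, with 0 of 44 among those that fell in both and 0 of 81 among the rest.

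The other 5 motifs gave these shares. An NF-κB site was in 4 of 115 windows of members that rose in both genotypes, or 3.48%, in 2.27% of those that fell, in 4.94% of the rest, in 6.13% of windows of genes in both tables and in 5.14% of all genes' windows. The letters TGANTCA (AP-1) were in 4.35%, 4.55% and 4.94% of the same member groups, in 6.51% of windows of genes in both tables and in 8.97% of all windows. The letters TGACGTCA (CREB/ATF) were in 4.58% of all members' windows, 3.56% of windows of genes in both tables and 2.03% of all genes' windows. Their share was 4.35% in members that rose, 4.55% in those that fell and 4.94% in the rest. GAAANNGAAA (interferon response) was in 2.08% of members' windows and in 3.99% both of windows of genes in both tables and of all windows. CCGGAAGT (ETS) was in 13.3% of members' windows, in 9.30% of windows of genes in both tables and in 4.31% of all windows, and its share was 13.9% in members that rose, 9.09% in those that fell and 14.8% in the rest. A motif match is a description of these letters in these windows.

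For comparison, the 250 bases before the start are given for Zfp811 and Zfp281, the members with the largest LPS rise in WT cells. Neither stretch holds any of the 6 motifs, so no letter is in capitals.
Zfp811 (chr17:32809932-32810181, minus strand): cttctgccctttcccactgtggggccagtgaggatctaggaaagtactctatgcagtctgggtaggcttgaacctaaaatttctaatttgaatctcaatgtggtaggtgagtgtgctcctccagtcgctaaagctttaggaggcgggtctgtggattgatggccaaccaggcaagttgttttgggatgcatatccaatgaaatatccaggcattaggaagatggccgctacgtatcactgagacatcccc
Zfp281 (chr1:136624651-136624900, plus strand): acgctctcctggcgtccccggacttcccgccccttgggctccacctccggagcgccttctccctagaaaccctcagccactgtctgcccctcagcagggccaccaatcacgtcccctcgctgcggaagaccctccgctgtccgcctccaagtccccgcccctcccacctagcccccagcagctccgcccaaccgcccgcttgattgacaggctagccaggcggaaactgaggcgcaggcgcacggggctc
G and C made up 48.4% of the Zfp811 stretch and 69.6% of the Zfp281 stretch. Zfp335, which rose in both genotypes, has the letters TGACGTCA 66 bases before its start. Zfp367, among the members that fell most firmly, has a RefSeq start at 64153199, near its GENCODE start at 64153202. The 250 bases before that RefSeq start hold none of the 6 motifs. Before another of its RefSeq starts, at 64152373, the letters TGACGTCA, here in capitals, lie 105 bases away.
Zfp367 (chr13:64152460-64152489, minus strand): tgacaggacgcTGACGTCActgccgcgcgc

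LPS raised Zfp genes more often than it lowered them, in both genotypes. In WT cells 142 members rose and 62 fell, and 83 did not pass the test. In KO cells 156 rose and 65 fell. Over all 16535 genes tested, 57.4% passed in WT cells, 29.3% upwards and 28% downwards, and 60.7% in KO cells, 29.5% upwards and 31.2% downwards. The median log2 fold change of the members was 0.32 in WT cells and 0.38 in KO cells, beside -0.018 and -0.026 over all genes tested. These calls used edgeR's quasi-likelihood test at a Benjamini-Hochberg adjusted p under 0.05 over all genes tested, as do all adjusted p-values that follow.

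Under upper-quartile scaling the median of all genes shifted to -0.23 in WT and -0.17 in KO cells, and the split of the members became 109 higher and 81 lower in WT cells and 133 higher and 80 lower in KO cells. Relative to the median of all genes the members stood 0.34 higher in WT and 0.41 higher in KO cells under TMM. Another scaling moves all genes by nearly the same amount, so the equal values under upper-quartile scaling are no test of this difference. Without the 3 libraries with other-strand counts the members' median was 0.27 in WT and 0.41 in KO cells. The medians over all genes were -0.0065 and 0.0020. That fit keeps 1 unstimulated WT and 2 unstimulated KO libraries, and the single one is assumed to vary like the other groups. Of the named members with a call, 24 of 25 in WT and 27 of 29 in KO cells passed in the same direction there, the others being Zfp148 in WT cells and Zfp91 and Zfp318 in KO cells. The largest shift among them was 0.33 on the log2 scale, for Zfp811 in WT cells, which then stood at 4.47, and Zfp568, Zfp281 and Zfp395 stood at 2.22, 2.47 and -3.12. In bulk libraries, fewer cells that express a gene and less RNA per cell cannot be told apart.

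Zfp811, a KRAB gene with 14 fingers (chr17:32795676-32809931), changed most. Its level was 0.382, 0.320 and 0.510 CPM in the 3 unstimulated WT libraries and 10.9, 11.8 and 12.04 CPM after LPS. In KO cells it was 0.246, 0.218 and 0.322 CPM unstimulated and 17.5, 14.4 and 13.8 CPM after LPS. The gene was thus near the floor of the members at rest in all 6 lines, with 20 counts in its lowest library, and well above it in all 6 after LPS. The log2 fold change was 4.80 ± 0.187 (log2 ± SE, adjusted p = 2.1e-09) in WT and 5.85 ± 0.195 (log2 ± SE, adjusted p = 5.31e-10) in KO cells. No 100-base window of its transcripts was found in another gene.

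Zfp568, the KRAB protein that silences a placental Igf2 transcript, lies on chromosome 7 (chr7:29983955-30028282). It went from 27.1, 27.7 and 24.1 CPM to 125, 113 and 106 CPM in WT libraries. In KO libraries it went from 21.3, 22.4 and 22.5 CPM to 90.8, 89.99 and 89.2 CPM. States did not overlap in either genotype, and the log2 fold changes were 2.13 ± 0.0733 (log2 ± SE, adjusted p = 9.14e-10) and 2.03 ± 0.0729 (log2 ± SE, adjusted p = 8.76e-10).

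Zfp281 (chr1:136624901-136630053), a GC-box binding factor without a KRAB box that is known from stem cells, was at 21.6, 19.5 and 20.3 CPM in unstimulated WT libraries and 103, 123 and 118 CPM after LPS. The KO libraries held 23.8, 18.8 and 18.7 CPM and then 95.7, 94.1 and 97.8 CPM. It rose in every line, by 2.49 ± 0.100 (log2 ± SE, adjusted p = 2.72e-09) in WT and 2.23 ± 0.0989 (log2 ± SE, adjusted p = 4.28e-09) in KO cells.

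Zfp800 is a transcription factor known from development of the endocrine pancreas. Its libraries stood at 32.6, 38.6 and 38.9 CPM in unstimulated WT cells and at 148, 159.6 and 171 CPM after LPS, and at 38.1, 38.5 and 36.7 CPM and 219.8, 191 and 170.5 CPM in KO cells. It rose by 2.12 ± 0.100 (log2 ± SE, adjusted p = 8.74e-09) in WT and 2.36 ± 0.101 (log2 ± SE, adjusted p = 3.35e-09) in KO cells. Zfp574, with 18 fingers, changed less but with little spread, from 10.3, 10.4 and 10.3 CPM to 27.7, 26.6 and 27.02 CPM in WT and from 9.06, 9.34 and 9.95 CPM to 25.9, 26.1 and 25.2 CPM in KO libraries. Its log2 fold changes were 1.39 ± 0.0563 (log2 ± SE, adjusted p = 2.73e-09) and 1.45 ± 0.0561 (log2 ± SE, adjusted p = 1.65e-09). The KRAB gene Zfp747 rose by 1.61 ± 0.0776 (log2 ± SE, adjusted p = 9.98e-09) in WT and 1.89 ± 0.0780 (log2 ± SE, adjusted p = 2.63e-09) in KO cells, though 11.9% of its 100-base windows also occur in transcripts of other genes, which makes its counts less certain.

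**Figure D1:**
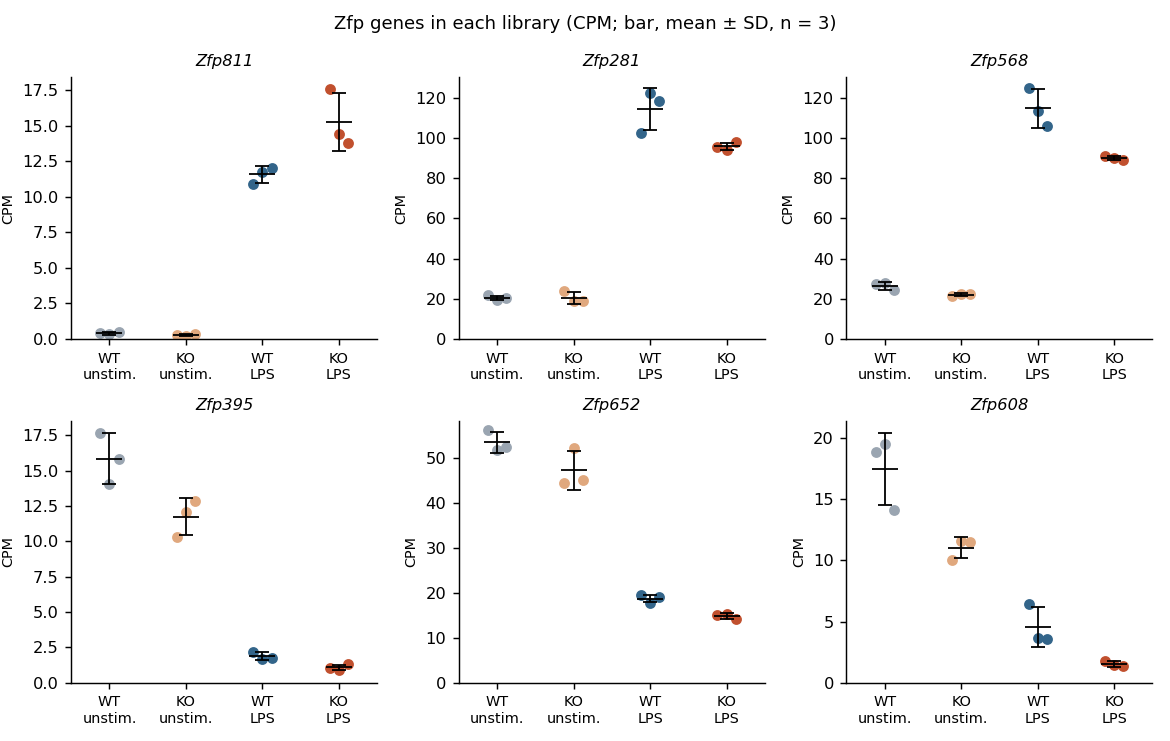
CPM (y axis, from 0) of 6 Zfp genes in the 12 libraries; x axis, the 4 groups. Points are libraries and bars the mean ± SD of 3. Zfp811, Zfp281 and Zfp568 are higher in all 6 LPS libraries than in any unstimulated one, and Zfp395, Zfp652 and Zfp608 are lower in all 6.

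Several of the members that fell most had few fingers. Zfp395, a single-finger protein that binds the huntingtin gene's promoter (chr14:65358389-65398930), dropped furthest. WT libraries held 17.7, 14.02 and 15.8 CPM unstimulated and 2.20, 1.68 and 1.71 CPM after LPS. KO libraries held 10.3, 12.1 and 12.9 CPM and 1.06, 0.921 and 1.29 CPM. The levels after LPS did not reach those at rest in any line, with log2 fold changes of -3.09 ± 0.161 (log2 ± SE, adjusted p = 1.87e-08) and -3.43 ± 0.165 (log2 ± SE, adjusted p = 8.31e-09).

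Zfp652, a repressor that works with the CBFA2T3 co-repressor, fell from 56.2, 51.9 and 52.5 CPM to 19.5, 17.8 and 19.01 CPM in WT libraries, a log2 fold change of -1.51 ± 0.0745 (log2 ± SE, adjusted p = 1.22e-08). In KO libraries it fell from 44.5, 52.3 and 45.1 CPM to 15.1, 15.4 and 14.1 CPM, or -1.67 ± 0.0750 (log2 ± SE, adjusted p = 4.77e-09). Exons of a gene on the other strand cover 19.3% of its exon sequence, and whether the counting used strand is not given in the sources used here, so its reads and that gene's may not be fully told apart. The same holds for 10.9% of the exon sequence of Zfp367, 28.3% of Zfp335, 26.1% of Zfp106 and 11.8% of Zfp341.

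Zfp608, a relative of the NIPBL partner Zfp609, was at 18.9, 19.5 and 14.1 CPM in unstimulated WT libraries and 6.41, 3.69 and 3.57 CPM after LPS. In KO libraries it was at 10.02, 11.6 and 11.5 CPM and 1.81, 1.46 and 1.36 CPM. It fell in both genotypes, with log2 fold changes of -1.94 ± 0.218 (log2 ± SE, adjusted p = 1.03e-05) and -2.84 ± 0.230 (log2 ± SE, adjusted p = 5.41e-07), and KO lines were below WT lines in each state.

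Another 4 members complete the fallers with the smallest p-values or the largest drops. The log2 fold change of Zfp362 was -1.64 ± 0.0988 (log2 ± SE, adjusted p = 5.81e-08) in WT and -1.65 ± 0.0988 (log2 ± SE, adjusted p = 4.63e-08) in KO cells. That of Zfp367 was -1.55 ± 0.125 (log2 ± SE, adjusted p = 6.12e-07) and -1.92 ± 0.126 (log2 ± SE, adjusted p = 1.02e-07). Zfp503, a developmental repressor in which the pattern found no C2H2 finger, changed by -2.17 ± 0.205 (log2 ± SE, adjusted p = 2.35e-06) and -2.09 ± 0.203 (log2 ± SE, adjusted p = 2.74e-06). Zfp946 changed by -0.86 ± 0.0666 (log2 ± SE, adjusted p = 4.23e-07) and -0.97 ± 0.0667 (log2 ± SE, adjusted p = 1.4e-07), from 20.5, 19.5 and 19.6 CPM to 10.6, 11.3 and 10.8 CPM in WT libraries. None of these 4 overlapped between states in either genotype.

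The size of the change was modest for most. Among members past the threshold the median absolute log2 fold change was 0.76 in WT and 0.80 in KO cells. A log2 rise above 1 was seen for 44 members in WT and 51 in KO cells, and above 2 for 7 and 6. A log2 drop beyond 1 was seen for 21 and 24 members, and beyond 2 for 2 and 3.

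The calls of the genotypes, which come from separate libraries, largely named the same genes. Of the 142 members that rose in WT cells 136, or 95.8%, rose in KO cells, and these were 87.2% of the 156 that rose there. Of the 62 that fell in WT cells 55, or 88.7%, fell in KO cells, which is 84.6% of the 65 there. No member passed in opposite directions, and 53 passed in neither genotype. Spearman's rho between the log2 fold changes was 0.95 across the 287 genes, which share libraries within a genotype and are not independent replicates.

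**Figure D2:**
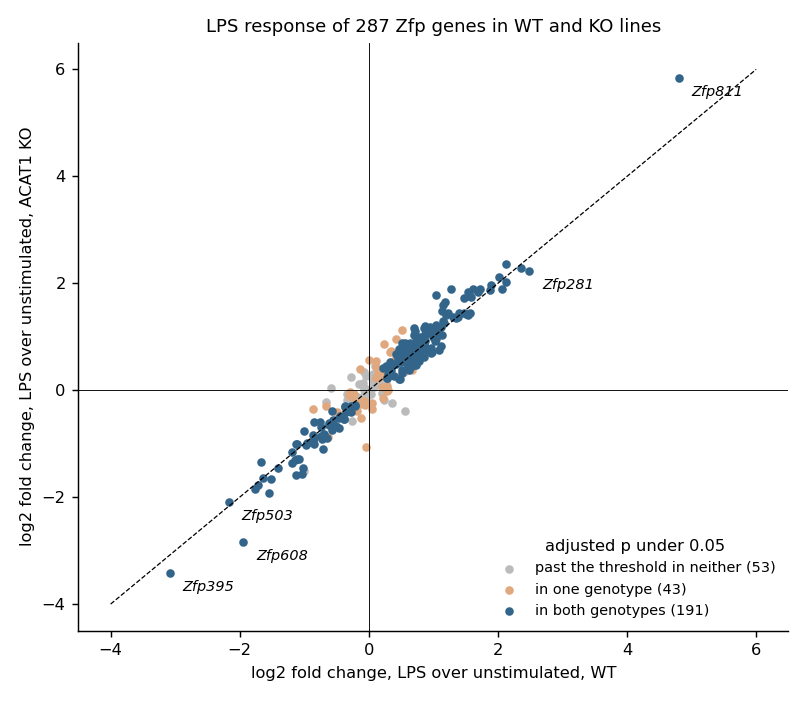
Log2 fold change after LPS of the 287 Zfp genes in WT (x axis) and ACAT1 KO cells (y axis); dashed line, equal change. Blue, past an adjusted p of 0.05 in both genotypes (191); orange, in one (43); grey, in neither (53). Points follow the line, with Zfp811 at 4.80 and 5.85 and Zfp395 at -3.09 and -3.43.

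The response was also counted by number of fingers. Of the 98 members with 13 or more C2H2 fingers, 55 rose and 13 fell in WT cells and 58 rose and 12 fell in KO cells, with medians of 0.45 and 0.57. Of the 53 with 5 or fewer, 17 rose and 20 fell in WT cells and 19 rose and 23 fell in KO cells, with medians of -0.075 and -0.036. The 133 members in between had medians of 0.36 and 0.43. Without the 3 libraries with other-strand counts, 47 of the 98 rose and 11 fell in WT cells and 63 rose and 11 fell in KO cells, and of the 53, 15 rose and 20 fell and then 19 rose and 22 fell. Spearman's rho between finger count and log2 fold change over 284 members was 0.21 in WT and 0.26 in KO cells, given as a description.

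The same was done for the KRAB box. Of 131 members with the KRAB pattern, 66 rose and 20 fell in WT cells and 79 rose and 22 fell in KO cells, while of 153 without it 75 rose and 42 fell and then 76 rose and 43 fell. The medians were 0.34 and 0.46 with the box and 0.28 and 0.27 without it. When the pattern also allowed tyrosine at one position, 71 of 148 rose and 24 fell in WT cells and 85 rose and 26 fell in KO cells, while of the 136 without it 70 rose and 38 fell and then 70 rose and 39 fell. In WT cells the share that rose was thus 50.4% with the box and 49.0% without it under the first pattern, and 48.0% and 51.5% under the second, so its order turned with the pattern. It also turned without the 3 libraries with other-strand counts, at 38.9% and 44.4% under the first pattern. In KO cells the shares were 60.3% and 49.7% under the first pattern, 57.4% and 51.5% under the second, and 64.9% and 50.3% without those libraries. No test of these differences was made.

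Counts were also taken by genomic cluster. On chromosome 7, the 14 members of the cluster around Zfp568 counted 11 that rose and 2 that fell in WT cells and 11 that rose and 1 that fell in KO cells, with medians of 0.61 and 0.69. Its next largest rises were in Zfp382, by 1.88 in WT and 1.88 in KO cells, and Zfp790, by 1.47 and 1.44. On chromosome 17, 6 of the 11 members around Zfp811 rose in WT cells and 9 in KO cells, with 2 that fell in each. Beside Zfp811 the cluster held Zfp871, which rose by 1.11 ± 0.0668 (log2 ± SE, adjusted p = 5.55e-08) in WT cells, and Zfp563, which rose by 1.15 ± 0.123 (log2 ± SE, adjusted p = 6.87e-06).

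In the cluster around Zfp58 on chromosome 13, of 18 members, all with the KRAB pattern, 8 rose and 1 fell in WT cells and 11 rose and 0 fell in KO cells. Zfp58 rose most there in WT cells, by 1.38, but 49.1% of its 100-base windows occur in other transcripts. The 8 members on chromosome 6 around Zfp282 counted 1 that rose and 3 that fell in WT cells and 3 of each in KO cells. Members in any cluster had medians of 0.35 in WT and 0.47 in KO cells, and the 115 outside clusters 0.23 and 0.17. Without the 3 libraries with other-strand counts these medians were 0.27 and 0.50 inside and 0.25 and 0.24 outside clusters. In that fit 7 of 14 members around Zfp568 rose in WT and 11 in KO cells, 6 and 9 of 11 around Zfp811, 7 and 14 of 18 around Zfp58, and 0 and 3 of 8 around Zfp282.

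**Figure D3:**
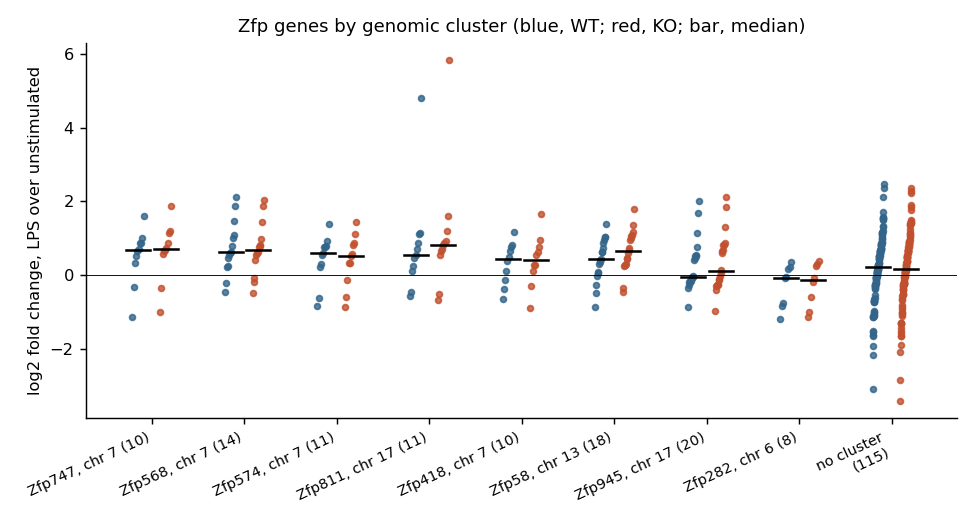
Log2 fold change after LPS (y axis) of Zfp genes in the 8 clusters of 8 or more members, each named by its highest gene in WT cells with its chromosome and size, and of the 115 genes in no cluster; blue, WT; red, KO; bar, median. Medians lie above 0 in both genotypes for 6 clusters and below 0 in both for the one around Zfp282.

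Over all genes tested, 29.3% rose and 28.0% fell after LPS in WT cells, and 29.5% and 31.2% in KO cells. Members with roles known from other work were described as a list of 28 genes, of which 24 were among the members. After LPS 16 rose and 1 fell in WT cells and 16 rose and 4 fell in KO cells, with medians of 0.63 and 0.50, and without the 3 libraries with other-strand counts 16 rose and 1 fell and then 17 rose and 2 fell. Zfp809, which recognises the primer binding site of retroviruses in stem cells and silences them, went from 12.1, 13.8 and 12.6 CPM to 27.01, 24.3 and 22.8 CPM in WT libraries. In KO libraries it went from 10.4, 11.9 and 10.5 CPM to 24.5, 24.6 and 22.1 CPM. It rose in both genotypes, by 0.95 ± 0.0866 (log2 ± SE, adjusted p = 1.83e-06) and 1.12 ± 0.0867 (log2 ± SE, adjusted p = 3.9e-07). Zfp644, a partner of the methyltransferases EHMT1 and EHMT2, rose by 1.02 (adjusted p = 6.2e-08) and 0.93 (adjusted p = 1.14e-07).

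Among other role genes, Zfp143, which binds many housekeeping promoters, rose by 1.13 (adjusted p = 1.45e-06) in WT and 1.03 (adjusted p = 2.81e-06) in KO cells. Zfp341, an activator of Stat3, rose by 0.97 (adjusted p = 3.34e-05) and 0.71 (adjusted p = 0.00037). Zfp410, known as an activator of Chd4, rose by 0.74 (adjusted p = 2.69e-06) and 0.55 (adjusted p = 2.79e-05). Chd4 itself rose by 0.96 (adjusted p = 1.39e-07) and 1.10 (adjusted p = 3.93e-08). Between genotypes after LPS, where Zfp410 was lower in KO cells, Chd4 was at 0.11 (adjusted p = 0.307). Whether Chd4 follows Zfp410 here was not tested. Zfp592, a member of the ZMYND8 complex, rose by 0.73 (adjusted p = 4.3e-06) and 0.48 (adjusted p = 0.00013), and Zfp687 of the same complex by 0.29 and 0.23, a rise that missed the threshold in both genotypes under upper-quartile scaling. Zfp217 rose by 0.82 and 0.96 and Zfp335, a factor of T cell maturation, by 0.80 and 0.64.

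Members that act on RNA or proteins went several ways. Zfp207 rose from 159, 152 and 166 CPM to 319, 257 and 249 CPM in WT libraries, by 0.79 (adjusted p = 7.71e-06), and by 0.63 (adjusted p = 4.74e-05) in KO cells. Zfp326, of a complex that couples splicing and transcription, rose by 0.50 and 0.52, the SUMO ligase Zfp451 by 0.66 and 0.46, and Zfp638, a silencer of unintegrated retroviral DNA, by 0.60 and 0.66. Zfp91, a ubiquitin ligase of the noncanonical NF-κB pathway, had log2 fold changes of -0.08 (adjusted p = 0.403) in WT and -0.21 (adjusted p = 0.0258) in KO cells. The KO value missed the threshold without unstimulated KO line 1 or 2 or LPS KO line 3, at -0.16 (adjusted p = 0.101), -0.20 (adjusted p = 0.0587) and -0.18 (adjusted p = 0.0935), and without the 3 libraries with other-strand counts, at -0.19 (adjusted p = 0.0612), and the difference between the genotypes was -0.13 (adjusted p = 0.819). Zfp598 was at -0.12 (adjusted p = 0.11) and -0.19 (adjusted p = 0.0158), where the KO value missed the threshold without unstimulated KO line 3 or LPS KO line 1, at -0.16 (adjusted p = 0.0635) and -0.18 (adjusted p = 0.0519), and turned in sign with length and GC offsets. Zfp318, which governs IgD expression in B cells, stood at -0.13 (adjusted p = 0.551) and -0.52 (adjusted p = 0.0168), the KO value missing the threshold without unstimulated KO line 2 or LPS KO line 3, at -0.36 (adjusted p = 0.0761) and -0.43 (adjusted p = 0.0701), or without the 3 libraries with other-strand counts, at -0.35 (adjusted p = 0.0529). For Zfp598 and Zfp318 the difference between the genotypes was -0.07 (adjusted p = 0.914) and -0.40 (adjusted p = 0.705). With length and GC offsets, Zfp638 missed the threshold in both genotypes, at 0.29 (adjusted p = 0.147) and 0.36 (adjusted p = 0.0723), and Zfp451 in KO cells, at 0.15 (adjusted p = 0.134). With upper-quartile scaling Zfp638 missed it in WT cells, at 0.39 (adjusted p = 0.0628).

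The remaining role genes gave small values. Zfp148 passed in WT cells at 0.20 (adjusted p = 0.0144), with its sign turned by upper-quartile scaling and by length and GC offsets and the call lost without unstimulated WT line 1, at 0.14 (adjusted p = 0.0933), and without the 3 libraries with other-strand counts, at 0.16 (adjusted p = 0.0694), and was at 0.06 (adjusted p = 0.413) in KO cells. Zfp746, a repressor of Ppargc1a, was at 0.30 (adjusted p = 0.0124) in KO cells, a call lost without unstimulated KO line 1 or LPS KO line 3, at 0.21 (adjusted p = 0.0504) and 0.26 (adjusted p = 0.0511), or with upper-quartile scaling, at 0.15 (adjusted p = 0.172), and was at 0.22 (adjusted p = 0.0569) in WT cells. Zfp106, Zfp609 and Zfp622 passed in neither genotype, with log2 fold changes of 0.06, 0.24 and 0.26 in WT cells. Zfp706, named for its level, had log2 fold changes of -0.27 (adjusted p = 0.00236) and -0.30 (adjusted p = 0.000991).

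Genes on a list of KRAB co-repressors and related silencing genes fell more often than they rose, though Trim28 and Setdb1 did not fall. Of 27 co-repressor and related silencing genes 26 were tested, and 8 rose and 13 fell in WT cells and 7 rose and 13 fell in KO cells, with medians of -0.18 and -0.23. Trim28, the hub, was at 0.08 (adjusted p = 0.204) in WT and 0.02 (adjusted p = 0.784) in KO cells. Setdb1 was at 0.14 (adjusted p = 0.045) in WT cells and at 0.08 (adjusted p = 0.256) in KO cells. Among those that fell in WT cells, the HP1 proteins Cbx5 and Cbx3 had log2 fold changes of -0.83 (adjusted p = 7.84e-05) and -1.11 (adjusted p = 2.33e-06). The maintenance methyltransferase Dnmt1 was at -0.75 (adjusted p = 0.000125), while Cbx1 did not pass, at -0.23 (adjusted p = 0.0735). Among those that rose in WT cells were Chd4 by 0.96 (adjusted p = 1.39e-07), Pphln1 by 0.58 (adjusted p = 3.53e-06) and Trim33 by 0.43 (adjusted p = 3.57e-05). Of other C2H2 families, 19 of 36 Zbtb genes rose and 10 fell in WT cells and 17 rose and 14 fell in KO cells, and 7 of 19 Zkscan and Zscan genes rose and 4 fell in WT cells and 11 rose and 3 fell in KO cells. Without the 3 libraries with other-strand counts, 5 co-repressor and related genes rose and 11 fell in WT cells and 7 rose and 14 fell in KO cells, Setdb1 missed the threshold in WT cells at 0.15 (adjusted p = 0.123), and 16 Zbtb genes rose and 9 fell in WT cells and 16 rose and 13 fell in KO cells. In the same fit 6 Zkscan and Zscan genes rose and 4 fell in WT cells and 11 rose and 2 fell in KO cells.

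Between the genotypes at rest, a single Zfp gene passed the test. Over all 16440 genes 1.91% passed, 0.742% upwards and 1.17% downwards in KO cells. Zfp277, a zinc finger protein encoded on chromosome 12 (chr12:40315046-40445902), was at 29.5, 27.03 and 28.4 CPM in the WT libraries and 20.4, 19.7 and 18.9 CPM in the KO libraries, which did not overlap. The log2 fold change, KO over WT, was -0.52 ± 0.0654 (log2 ± SE, adjusted p = 0.0286). The call was lost when any library other than WT line 3 was left out, with values from -0.56 to -0.49, and with length and GC offsets, at -0.42. Leaving out the 3 libraries with other-strand counts sets 1 WT against 2 KO libraries, a fit that called 0.390% of all genes, and there the value was -0.54 and did not pass, which for so few libraries says little of the gene.

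The members' median was nonetheless below that of all genes at rest, at -0.10 against 0.0035, with 85 of 287 members above 0. At an unadjusted p under 0.05 there were 50 members, or 17.4%, against 19.7% of all genes. DESeq2 called 21 (2 higher and 19 lower), or 7.32% against 9.80% of all genes, and a single fit of all 12 libraries called 23 (1 higher and 22 lower), or 8.01% against 8.18%. In these counts, taken in either direction, the members' shares were at or below those of all genes. At an unadjusted p under 0.05 they were above with DESeq2, at 22.3% against 19.5%. In the single fit they were also above, at 29.6% against 24.0%. Among downward calls alone, the members' shares were also above those of all genes in both fits. With DESeq2 19 of 287 members were lower, beside 893 of 17544 genes. In the single fit 22 of 287 members were lower, beside 758 of 16535 genes. With the 1 WT and 2 KO libraries that remain without those with other-strand counts, the median was -0.14. The biological coefficient of variation was 0.285 at rest and 0.108 after LPS. With length and GC offsets the median was -0.029, and that of all genes 0.058. The members' exons had a median GC of 45.0% and a median length of 4706 bases, against 49.9% and 3437 bases over all genes tested, and what part composition has in the lower median was not tested beyond these offsets.

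After LPS, 9 members were higher and 23 lower in ACAT1 KO cells. Over all 16483 genes 15.1% passed, 5.93% upwards and 9.12% downwards, so the members' share of 11.1% was below that of all genes. The members' median was -0.065, beside -0.0041 over all genes. Most differences were small, with a median absolute log2 fold change of 0.42 among the 32.

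The genes with the smallest p-values downwards were 3 of the 4 members on chromosome 12 and Zfp608. Zfp277 was at 22.1, 21.7 and 20.9 CPM in WT and 12.7, 13.7 and 14.5 CPM in KO libraries after LPS, a difference of -0.64 ± 0.0726 (log2 ± SE, adjusted p = 0.0031). Zfp410 was at 47.3, 42.04 and 41.3 CPM in WT and 31.5, 31.2 and 31.6 CPM in KO libraries, a difference of -0.45 ± 0.0668 (log2 ± SE, adjusted p = 0.00663). The KRAB gene Zfp386 was at 28.8, 27.2 and 25.9 CPM and 19.6, 19.4 and 20.7 CPM, a difference of -0.43 ± 0.0665 (log2 ± SE, adjusted p = 0.0073). For all 3 genes the KO libraries lay below every WT library in both states. Zfp608 differed by -1.54 ± 0.245 (log2 ± SE, adjusted p = 0.00793).

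Only 4 members were lower by more than 1 on the log2 scale, and besides Zfp608 these were Zfp462, Zfp618 and Zfp469, none of them among the smallest p-values. Zfp462 was at 3.32, 1.47 and 1.38 CPM in WT and 0.582, 0.581 and 0.628 CPM in KO libraries, a difference of -1.74 ± 0.348 (log2 ± SE, adjusted p = 0.0169). Zfp618 was at 3.22, 1.74 and 1.04 CPM and 0.722, 0.760 and 0.343 CPM, a difference of -1.68 ± 0.444 (log2 ± SE, adjusted p = 0.04). WT line 1 was the highest WT library for both, and WT and KO libraries did not overlap. Zfp469 was at 7.55, 5.23 and 4.75 CPM and 2.82, 2.92 and 2.68 CPM, a difference of -1.03 ± 0.174 (log2 ± SE, adjusted p = 0.00962).

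**Figure D4:**
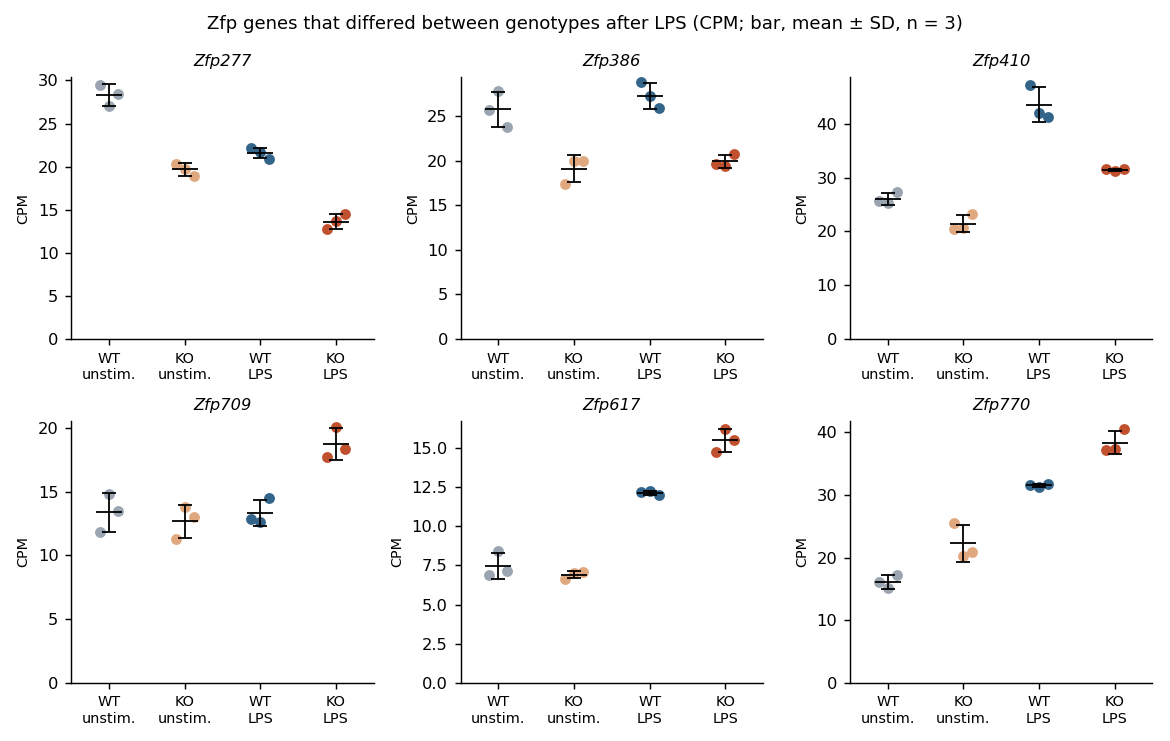
CPM (y axis, from 0) of 6 Zfp genes in the 12 libraries; x axis, the 4 groups. Points are libraries and bars the mean ± SD of 3. After LPS, Zfp277, Zfp386 and Zfp410 are lower and Zfp709, Zfp617 and Zfp770 higher in all 3 KO libraries than in any WT library.

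Of the genes with the smallest p-values upwards, Zfp709 and Zfp617 are KRAB genes of one cluster of 4 members on chromosome 8. Zfp709 (chr8:71882019-71895727) was at 12.8, 12.6 and 14.5 CPM in WT and 17.7, 20.1 and 18.4 CPM in KO libraries after LPS, and at 11.8, 14.8 and 13.5 CPM and 11.2, 13.8 and 13.02 CPM at rest. It was higher after LPS by 0.51 ± 0.0842 (log2 ± SE, adjusted p = 0.009), with overlapping groups at rest. Zfp617 was at 12.2, 12.2 and 12.02 CPM and 14.7, 16.2 and 15.5 CPM after LPS, a difference of 0.37 ± 0.0683 (log2 ± SE, adjusted p = 0.0127) that missed the threshold without KO line 2, at 0.34. Other transcripts hold 32.9% of its 100-base windows.

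Zfp661 and Zfp770 lie on the distal part of chromosome 2, past 90 Mb. Zfp661 was at 4.77, 5.33 and 5.33 CPM and 6.76, 7.16 and 6.86 CPM after LPS, a difference of 0.45 ± 0.0882 (log2 ± SE, adjusted p = 0.016). Zfp770 was at 31.5, 31.3 and 31.8 CPM and 37.2, 37.3 and 40.5 CPM, a difference of 0.30 ± 0.0604 (log2 ± SE, adjusted p = 0.0168). Groups did not overlap for either, but both missed the threshold without KO line 2, at 0.43 and 0.33, or without KO line 3, at 0.46 and 0.26. Zfp770 also missed it in a single fit of all 12 libraries, at 0.28 (adjusted p = 0.0547).

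Genes of these 2 chromosome parts as a whole leaned the same way. Of 584 chromosome 12 genes tested after LPS 41.1% were lower and 2.05% higher in KO cells, with a median of -0.28, and of the 4 members there 3 were lower. Of 712 distal chromosome 2 genes 36.5% were higher and 1.12% lower, with a median of 0.28, and of the 12 members there 4 were higher and 0 lower. On the other chromosomes 4.64% of genes were higher and 8.27% lower, and of 271 members 5 were higher and 20 lower. Chromosome number was not measured, and its part in these values was not tested. When both parts were left out of the fit, 4 members were higher and 18 lower, beside 626 and 1103 of 15226 genes.

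**Figure D5:**
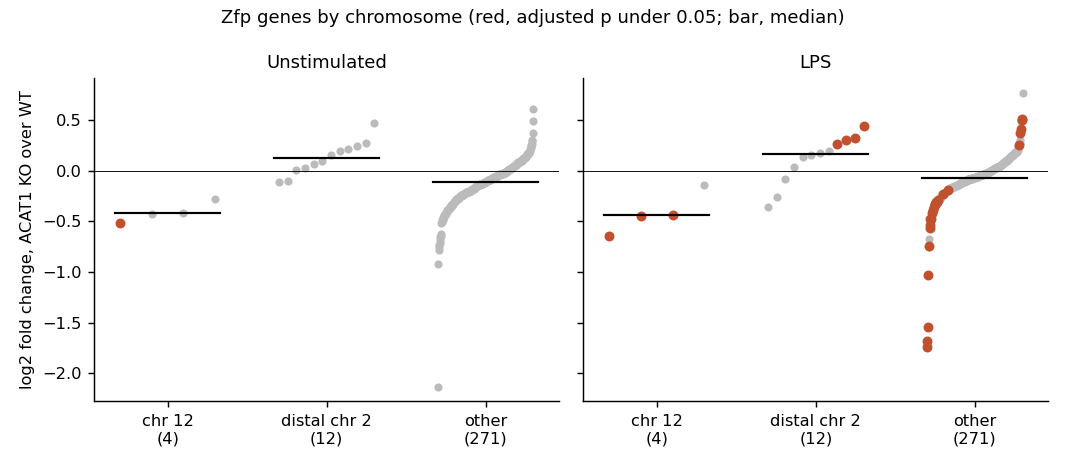
Log2 fold change of ACAT1 KO over WT (y axis) for Zfp genes on chromosome 12 (4), distal chromosome 2 (12) and elsewhere (271), unstimulated (left) and after LPS (right). Red, adjusted p under 0.05; bar, median. All 4 chromosome 12 genes are below 0 in both states.

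Of the 24 role genes 1 was higher and 7 were lower in KO cells after LPS. These are 4.17% and 29.2%, beside 5.93% and 9.12% of all genes. The list was chosen with earlier results of these data known, and the difference in share was not tested. Besides Zfp410 and Zfp608, Zfp592 differed by -0.33 (adjusted p = 0.0126), Zfp568 by -0.33 (adjusted p = 0.0182), Zfp644 by -0.31 (adjusted p = 0.0127), Zfp318 by -0.56 (adjusted p = 0.025) and Zfp148 by -0.18 (adjusted p = 0.0421). Zfp106, an RNA-binding protein needed in motor neurons and also on distal chromosome 2, was higher by 0.27 (adjusted p = 0.0309). Several of these calls were lost in fits with a library fewer, at folds that mostly moved little. Zfp592 missed the threshold without KO line 3, at -0.31, and Zfp148 in each fit without a library, from -0.19 to -0.17. Zfp568 missed it without WT line 2 or any KO line, from -0.34 to -0.32, Zfp644 without KO line 1 or 2, at -0.29 in both, Zfp318 without WT line 2, KO line 1 or KO line 3, from -0.57 to -0.45, and Zfp106 without any library but WT line 3, from 0.23 to 0.30. With length and GC offsets Zfp568, Zfp644 and Zfp148 also missed it, at -0.24, -0.20 and -0.11. Zfp148 further missed it with upper-quartile scaling, at -0.15 (adjusted p = 0.0736), with the replicate block, at -0.18 (adjusted p = 0.0668), and without chromosome 12 and distal chromosome 2, at -0.18 (adjusted p = 0.0518), and Zfp106 in a single fit of all 12 libraries, at 0.25 (adjusted p = 0.0788).

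Of the 26 co-repressor and related genes, 1 was lower in KO cells at rest and 4 after LPS, with 0 higher in either state. The gene lower at rest was Chd3, a NuRD complex helicase, with a log2 fold change of -1.56 (adjusted p = 0.0162) at rest and -1.49 (adjusted p = 0.00145) after LPS. It also passed at rest with the 1 WT and 2 KO libraries left without those with other-strand counts, at -1.23 (adjusted p = 0.00934). The others after LPS were Trim33 at -0.36 (adjusted p = 0.00944), Dnmt3a at -0.45 (adjusted p = 0.0212) and Uhrf1 at -0.43 (adjusted p = 0.0179), while Trim28 was at -0.11 (adjusted p = 0.178). After LPS 9 of 37 Zbtb genes, or 24.3%, were lower and 0 higher, and of 19 Zkscan and Zscan genes 1 was higher and 0 lower. Over all genes 9.12% were lower and 5.93% higher after LPS, and 1.17% and 0.742% at rest.

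The difference between the LPS responses, KO less WT, passed for 0 members with edgeR. An unadjusted p under 0.05 was found for 28 members, or 9.76%, against 8.92% of all genes. DESeq2 called 4, or 1.39%, against 1.98% of all genes. With all 12 libraries both counts were thus near the background. The 4 had a larger response in KO cells. In the main edgeR fit 0.187% of all genes passed, 0.0484% upwards and 0.139% downwards. Leaving out a library gave 17 to 55 members at an unadjusted p under 0.05. The 55 of 287 came without unstimulated WT line 1, beside 1509 of 16596 genes, a share above that of all genes. The 17 of 287 came without unstimulated WT line 2, beside 1285 of 16590 genes, a share below that of all genes. How the members' share stood to the background thus depended on the libraries kept. Without the 3 libraries with other-strand counts the members' median difference was 0.096, beside 0.00061 over all genes. The 4 that DESeq2 called were Zfp811, Zfp866, Zfp617 and Zfp709. Zfp811 differed by 1.05 ± 0.249 (log2 ± SE, adjusted p = 0.129) with edgeR and by 1.08 (adjusted p = 0.00775) with DESeq2. Zfp866 differed by 0.62 ± 0.160 (log2 ± SE, adjusted p = 0.165) and 0.64 (adjusted p = 0.0132), Zfp617 by 0.47 ± 0.121 (log2 ± SE, adjusted p = 0.167) and 0.48 (adjusted p = 0.0131), and Zfp709 by 0.57 ± 0.146 (log2 ± SE, adjusted p = 0.164) and 0.58 (adjusted p = 0.0182). The members' median difference was 0.030, beside -0.038 over all genes. Between WT and KO cells the response of single Zfp genes was therefore not shown to differ with the main test, at a spread that leaves differences of the size seen for Zfp811 under the threshold.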

How the data were processed

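RNA-seq was analysed for 12 libraries, 3 each of WT and ACAT1 KO J774A.1 cells, unstimulated or after LPS, grouped by their labels. The authors deposited raw counts per gene, as whole numbers, in one table for each state. By the study's methods reads were trimmed with Trimmomatic 0.33, aligned to GRCm38 with HISAT2 and quantified with StringTie. The step that gave whole counts and its use of strand are not given in the sources used here. Left unused were 12 columns with a log2 value for each library and the authors' own comparison (log2 fold change, average, moderated statistic, p-values and B). Repeated entries of a gene were removed, 59 at rest and 57 after LPS.

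Counts were tested with edgeR 4.0.16 in R 4.3.3 (filterByExpr, TMM, quasi-likelihood, two-sided), with Benjamini-Hochberg adjustment over all genes tested, and SE as the size of the log2 fold change over the square root of F. Genotypes were compared within each state's 6 libraries. LPS responses and their difference used all 12 libraries and genes of both tables. The fits were tried on simulated counts. Alternatives were relative log expression and upper-quartile scaling, no filter, DESeq2 1.42.0, length and GC offsets, replicate blocks, a strand term, leaving out chromosome parts, and leaving out each library. Leaving out the 3 libraries with other-strand counts and the wider KRAB pattern were added after seeing the data.

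Libraries of a genotype with the same number in both states deviated together (r from 0.139 to 0.454 over 11961 genes of 1 CPM or more, positive in all 6 pairs), so numbers were taken to mark lines, an inference from the data. Depth was high enough that the spread between lines, not counting error, limits precision for all but the lowest members.

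The members, gene lists and rules were chosen with earlier results of these data known. Genes named are, for each comparison, the 4 members with the smallest p in each direction past the threshold, the 2 with the largest LPS change each way at 1 CPM or more, the role list, and the 3 highest per kb. Others, such as Zfp382, Zfp790, Zfp871, Zfp563, Zfp58, Zfp619, Zfp866, Zfp462, Zfp618 and Zfp469, were named after their values were seen. C2H2 fingers and KRAB boxes were counted by pattern in translated GENCODE coding sequences, which can miss divergent copies.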

Additional observations from a re-analysis of the deposited data

Results flagged for a closer look

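In 4 Zfp genes every WT line moved one way after LPS and every KO line the other, with lines paired by their number. The same screen was not run over all genes, so whether 4 is more than the background is not known. The difference between the responses, KO less WT on the log2 scale, was -0.35 for Zfp180 (adjusted p = 0.247), -0.95 for Zfp469 (adjusted p = 0.465), 0.52 for Zfp493 (adjusted p = 0.561) and 0.23 for Zfp943 (adjusted p = 0.656), so none passed edgeR's test of the difference. For Zfp180 the libraries held 35.7, 37.4 and 34.8 CPM in unstimulated WT cells and 44.2, 41.6 and 39.3 CPM after LPS, and 32.8, 38.5 and 37.7 CPM and then 31.7, 34.9 and 32.1 CPM in KO cells. WT line 1 of Zfp943 changed by -0.000398 on the log2 scale, which is next to nothing.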

How the results depend on the processing

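Of 69 calls for single named members, 49 held their direction and side of the threshold in every alternative tried and 20 did not. The 22 that held in WT cells and the 22 in KO cells after LPS include the largest risers and fallers. At rest, the members called between genotypes numbered 1 in the analysis as reported, beside 314 over all genes. They numbered 21 with DESeq2 (1719 over all genes), 23 with all 12 libraries in a single fit (1353) and 7 with a strand term (664). They numbered 0 with length and GC offsets (87), with these offsets and a replicate block (136) and without chromosome 12 and distal chromosome 2 (74). The last of these fits leaves out Zfp277, the member called, along with chromosome 12, so it is no test of that call. The fit without the 3 libraries with other-strand counts leaves 1 WT and 2 KO libraries, and there the members' median was -0.14. Leaving out a library gave 0 to 3 calls at rest, beside 7 to 522 over all genes. After LPS it gave 10 to 28 in place of 32. The fewest were 10 without KO line 2, 11 without KO line 1, 13 without KO line 3 and 16 without WT line 2. Calls over all genes also fell in those fits, from 2481 to 867, 1020, 1034 and 1183 in the same order. The WT response kept 188 to 205 calls, beside 8636 to 9676 over all genes. The KO response kept 205 to 223, beside 8978 to 10224. The difference of responses gave 0 to 1 (Zfp866 without unstimulated WT line 1), beside 2 to 41. The difference of responses called 4 members with DESeq2, 1 with a strand term (Zfp811) and 1 with the replicate block and offsets (Zfp984). Over all genes these fits called 330, 69 and 182. Offsets moved the median log2 fold change between genotypes at rest to -0.029, and to -0.025 with the block. They moved the WT response's median to 0.25 and the KO response's to 0.31, also 0.31 with the block, while upper-quartile scaling gave 0.12 and 0.23. Without a library the medians ran from -0.14 to -0.061 at rest, -0.072 to -0.049 after LPS, 0.24 to 0.34 for the WT response, 0.33 to 0.41 for the KO response and -0.0039 to 0.096 for their difference. Zfp148 in WT cells turned to -0.012 with upper-quartile scaling, -0.038 with offsets and -0.037 with offsets and block. Zfp598 in KO cells turned to 0.0043 with offsets and 0.0049 with offsets and block. The split of calls between genotypes after LPS was 9 higher and 23 lower as reported and 14 higher and 18 lower with offsets. Over all genes it was 977 and 1504 as reported and 1166 and 1095 with offsets. A block by line gave 156 higher and 65 lower in the WT response, beside 5175 and 5073 over all genes. In the KO response it gave 161 higher and 71 lower, beside 5191 and 5527. It lost no call of a named member in these responses. Between genotypes at rest, WT and KO libraries of number 2 and of number 3 deviated together (r of 0.650 and 0.644). Those of number 1 did not (r of -0.337), and after LPS r ran from -0.050 to 0.076. What the sharing at rest reflects was not tested. A replicate block by number gave 1 call at rest and 27 after LPS, beside 151 and 2230 over all genes. Apart from the alternatives' own construction, the cause of these shifts was not tested.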
